A study of Mus musculus with 6 samples.

Results

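The TNF superfamily ligands and receptors were taken from the gene symbols of the deposited count table. They number 46 genes, 18 ligands and 28 receptors, among 55421 genes in the table. RNA was measured by poly(A) RNA-seq in 6 samples of primary mouse pancreatic stellate cells (PSCs), fibroblast-like cells of the pancreas that can give rise to cancer-associated fibroblasts. The PSCs came from wild-type C57BL/6 mice, were at low passage, and lay in Matrigel in a transwell insert above organoids of mT3, a line derived from a pancreatic ductal adenocarcinoma (PDAC) of a KPC mouse. Cocultures were kept for 48 h at 21% O2 (normoxia, 3 samples) or at 1% O2 (hypoxia, 3 samples), and PSCs grown without organoids were not analysed here. The labels number the samples but do not say whether they came from separate PSC lines or mice, so the p-values measure the spread between these samples, which may be technical.

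TNF superfamily ligands are mostly trimeric membrane proteins, some of which are shed, and each binds 1 or more receptors with cysteine-rich repeats outside the cell. Receptors with a death domain can recruit caspases, and many receptors of the family, some with a death domain, signal to NF-kB through TRAF adapters. Decoy receptors bind ligand without a working signaling tail. In fibroblasts, TNF and lymphotoxin receptors are known inputs to the inflammatory NF-kB program, while many of the costimulatory members are better known from lymphocytes and antigen-presenting cells.

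Library totals ranged from 24749601 to 25914892 counts in normoxia and from 25847719 to 31925054 in hypoxia. Expression is given as CPM, the counts of a gene scaled to a common library size, after TMM normalization. Summed CPM of 10 fibroblast and stellate cell markers lay between 27400 and 34500 in normoxia and between 28900 and 33800 in hypoxia, most of it from the collagen genes. Of these markers Pdgfra rose and Lum and Thy1 fell, and none was at 0. All 10 genes of a hypoxia check list rose, by log2 fold changes from 1.03 for Ldha to 5.13 for Car9. The 13 macrophage and monocyte markers were also detected in every sample, and their summed CPM was 1030, 1830 and 1440 in normoxia against 527, 959 and 647 in hypoxia. Of these, 8 fell and 0 rose, and in both conditions the sum was lowest in replicate 1 and highest in replicate 2. The summed CPM of 6 dendritic cell markers was 11.1 to 11.3 in normoxia and 7.11 to 8.93 in hypoxia, with none called. That of 6 endothelial markers was 12.8 to 18.0 in normoxia and 20.2 to 28.2 in hypoxia, with 2 called higher and 1 lower, and that of 4 Schwann cell markers overlapped between the conditions. The part of these cell types in the results was not tested. In bulk RNA, fewer cells of a type and less RNA per cell cannot be told apart.

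Hypoxic samples were compared with normoxic samples for every gene with enough counts, and a gene was called changed when its edgeR quasi-likelihood adjusted p was under 0.05 and its linear fold change was over 1.5. Of the 46 members, 33 could be tested and 19 were called, 10 higher and 9 lower in hypoxia. That is 57.6% of the tested members, beside 34.2% of all 16207 tested genes. The share called higher was 30.3% beside a background of 18.9%, and the share called lower was 27.3% beside 15.3%. Both directions were present, and the median log2 fold change of the tested members was 0.01, near that of all genes. Among 10 tested ligands 1 rose and 3 fell, with a median log2 fold change of -0.21, whereas among 23 tested receptors 9 rose and 6 fell, with a median of 0.11.

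**Figure D1:**
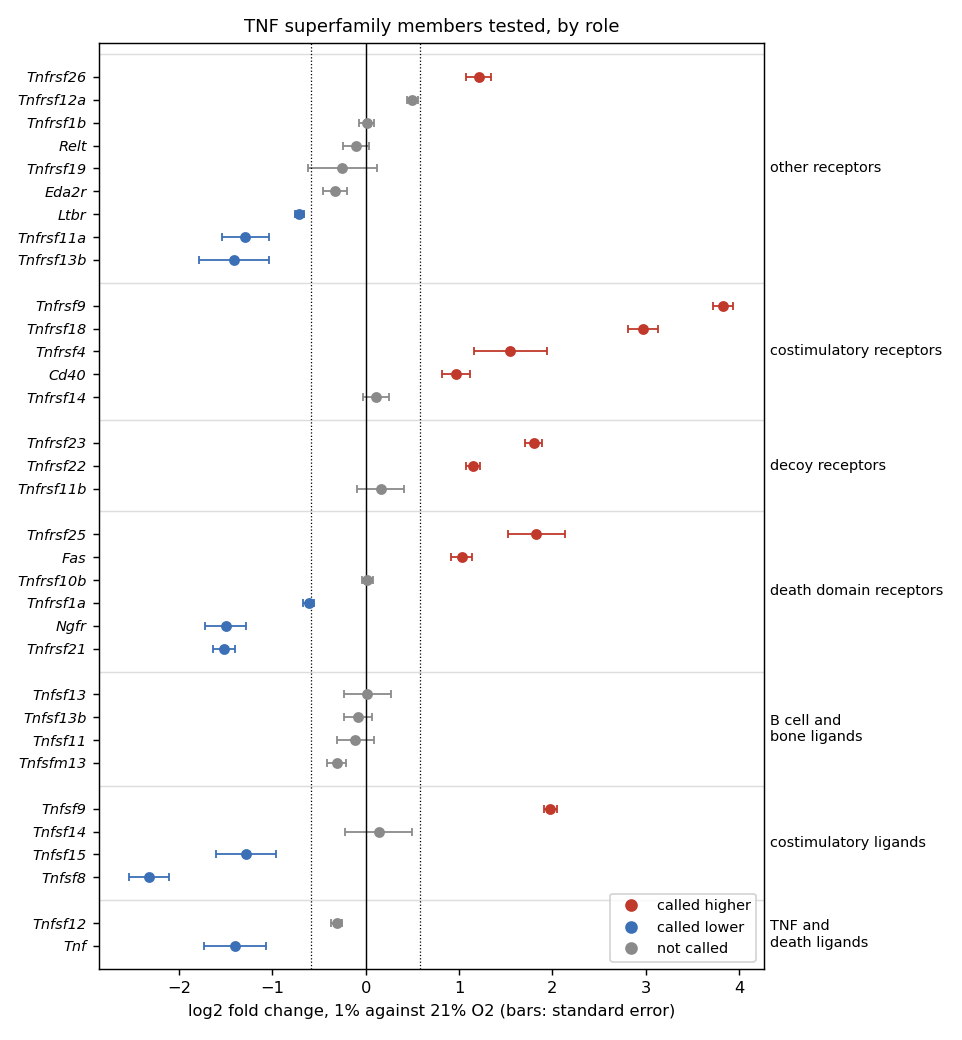
Log2 fold change in hypoxia against normoxia on the x axis for the 33 tested members, grouped by role, with bars showing the standard error, red and blue marking genes called higher and lower, and dotted lines at a fold of 1.5. Costimulatory receptors lie at or above 0.11, from Tnfrsf14 to Tnfrsf9 at 3.83, and the lowest value is that of Tnfsf8 at -2.32.

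The largest rise belonged to Tnfrsf9, and the promoter sequences of the members that rose most are given here with the values that follow. RefSeq on GRCm38.p6 held promoter entries for 36 of the 46 members. The 250 bases before each start were searched on both strands for ACGTG and GCGTG, the core of a hypoxia response element, and for the 10-base NF-kB consensus. Capitals mark these motifs, and all sequences run 5′ to 3′ on the strand of the gene. For the second start of Tnfrsf9, 30 bases around the NF-kB matches are shown, and that window overlapped an annotated exon. The second Tnfrsf25 window overlapped an annotated coding exon and is shown whole. One window of Tnfrsf18 held none of the motifs and is not shown, and Tnfsf9 had no entry.
Tnfrsf9, chr4:150919905-150920154, + strand: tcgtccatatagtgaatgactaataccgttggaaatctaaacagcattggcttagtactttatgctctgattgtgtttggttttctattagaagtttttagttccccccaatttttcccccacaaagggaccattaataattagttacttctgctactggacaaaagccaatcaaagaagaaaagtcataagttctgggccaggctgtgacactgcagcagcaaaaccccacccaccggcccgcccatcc
Tnfrsf9, chr4:150927947-150927976, + strand: agagcagctGGGGATTTCCCaggaggccct
Tnfrsf25, chr4:152115684-152115933, + strand: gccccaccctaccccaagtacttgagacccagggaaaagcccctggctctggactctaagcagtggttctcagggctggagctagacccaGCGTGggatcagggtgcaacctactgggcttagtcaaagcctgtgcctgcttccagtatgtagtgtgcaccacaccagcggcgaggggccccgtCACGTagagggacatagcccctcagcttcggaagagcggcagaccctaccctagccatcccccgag
Tnfrsf25, chr4:152116093-152116342, + strand: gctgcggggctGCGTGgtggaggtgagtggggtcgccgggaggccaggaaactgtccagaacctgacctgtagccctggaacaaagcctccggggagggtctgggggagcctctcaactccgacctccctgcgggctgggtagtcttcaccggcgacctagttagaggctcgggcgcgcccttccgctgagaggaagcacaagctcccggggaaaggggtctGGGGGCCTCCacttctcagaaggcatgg
Tnfrsf23, chr7:143685876-143686125, - strand: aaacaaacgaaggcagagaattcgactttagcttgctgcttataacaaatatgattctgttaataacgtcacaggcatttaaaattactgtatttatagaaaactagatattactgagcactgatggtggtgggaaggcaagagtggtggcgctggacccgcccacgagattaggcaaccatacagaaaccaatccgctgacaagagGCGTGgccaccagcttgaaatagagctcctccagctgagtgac

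The first Tnfrsf9 window held no match, and the second held overlapping NF-kB matches, the first of them 43 to 34 bases before its start. The first Tnfrsf25 window held GCGTG and, on the other strand, ACGTG, and the second held GCGTG and 1 NF-kB match. In the Tnfrsf23 window GCGTG lay 43 to 39 bases before the start. Among the 6 members called higher with an entry, 3 had ACGTG, 3 had GCGTG and 2 had the NF-kB consensus. Among the 9 called lower the numbers were 3, 3 and 0, among the 11 tested and not called 2, 5 and 0, and among the 10 not tested 1, 2 and 2. Across all 32851 promoters of the same length, 16.6% held ACGTG, 28.2% held GCGTG and 7.25% held the NF-kB consensus. Counted by gene, as the members are, the shares were 18.5%, 30.9% and 8.23% of 27025 genes. These matches describe the letters in the windows, and binding was not measured.

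The costimulatory receptors were the group with the most uniform rise. Of 7, 5 were tested, 4 rose and 0 fell. Tnfrsf9 (ENSMUSG00000028965, chr4:150914562-150946102, + strand, GRCm38), which encodes the T cell costimulator 4-1BB, was measured at 2.77, 3.11 and 3.81 CPM in normoxic replicates 1, 2 and 3 and at 45.0, 49.6 and 43.1 CPM in hypoxic replicates 1, 2 and 3. Every hypoxic sample stood above every normoxic one. Means were 3.23 ± 0.531 CPM in normoxia and 45.9 ± 3.29 CPM in hypoxia (SD, n = 3), which gave a log2 fold change of 3.83 ± 0.11 (SE) (edgeR adjusted p = 4.25e-08), or 14.2-fold. No 75-base stretch of its transcripts was shared with another gene.

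Tnfrsf18 (chr4:156026164-156028895, + strand), the receptor GITR of regulatory and activated T cells, was at 1.04, 1.40 and 1.46 CPM in normoxia and 9.19, 10.3 and 11.1 CPM in hypoxia, in the same order of replicates as used throughout. Its groups were well apart, with a log2 fold change of 2.97 ± 0.16 (SE) (edgeR adjusted p = 9.24e-07). The antisense gene Gm16008 overlaps its exons and had 14, 26 and 17 counts in normoxia and 153, 155 and 198 in hypoxia, a log2 fold change of 2.94. Of the 75-base stretches of Tnfrsf18 transcripts, 14.9% were shared with Gm16008. The strand setting of the counting was not stated, so reads in the shared stretches cannot be told apart.

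Cd40, a receptor of antigen-presenting cells that fibroblasts can also carry, rose from 2.93, 3.23 and 3.21 CPM to 5.42, 7.12 and 5.81 CPM. The lowest hypoxic value exceeded the highest normoxic one, and the log2 fold change was 0.97 ± 0.15 (SE) (edgeR adjusted p = 0.000497). Tnfrsf4 (OX40), which lies beside Tnfrsf18, was also called higher, but it rested on 4, 5 and 6 counts in normoxia and 20, 17 and 14 counts in hypoxia, and both group means were under 1 CPM. Its log2 fold change was 1.55 (edgeR adjusted p = 0.0071), and the call was lost in DESeq2 with the replicate number as a block (adjusted p = 0.0892). Tnfrsf14 (HVEM) was not called, with overlapping groups and a log2 fold change of 0.11. Cd27 and Tnfrsf8 had at most 6 and 3 counts in any sample and were not tested.

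T and NK cells are the usual source of several of these receptors. Of 10 T and NK cell markers, 2 could be tested, Cd3e, Cd3g, Cd8a, Nkg7, Ncr1 and Gzma had 0 counts in every sample, and the summed CPM of the list was 1.04 to 2.05 in normoxia and 1.08 to 1.26 in hypoxia. Of the 2 tested, Cd2 was called lower, with a log2 fold change of -2.67 (edgeR adjusted p = 0.000518), and Cd4 was not called. The part of T or NK cells in the rises was not tested. Among epithelial and tumor markers, the summed CPM went from between 0.835 and 2.19 to between 21.0 and 24.7, and in hypoxia almost all of it was Krt19. Its part in the rise of any member was not tested.

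**Figure D2:**
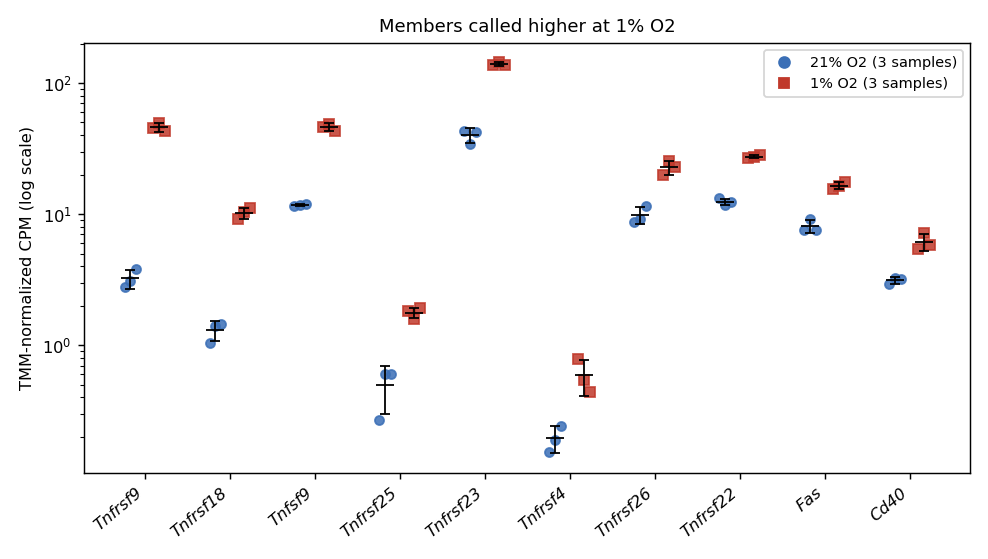
TMM-scaled CPM on a log axis for the members called higher, each point 1 sample, normoxia and hypoxia side by side, with black bars at the mean and SD (n = 3). For each of the 10 genes the 3 hypoxic samples lie above the 3 normoxic ones, most widely for Tnfrsf9 and Tnfrsf18.

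Tnfsf9 (ENSMUSG00000035678, chr17:57105325-57107757, + strand), which encodes 4-1BBL, the ligand of the Tnfrsf9 protein, was the only ligand called higher. It was at 11.5, 11.7 and 12.0 CPM in normoxia and 46.5, 49.1 and 43.1 CPM in hypoxia. The normoxic samples were close together and all hypoxic samples were far above them. The log2 fold change was 1.98 ± 0.07 (SE) (edgeR adjusted p = 8.53e-08), or 3.94-fold. Gm11110, a noncoding gene on the other strand that overlaps its exons, had 88, 90 and 109 counts in normoxia and 305, 379 and 423 in hypoxia, and 9.7% of the 75-base stretches of Tnfsf9 were shared with it. Thus both the receptor and the ligand transcript of this pair rose in the same RNA.

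The other costimulatory ligands were lower, not called or not measurable. Tnfsf8, the CD30 ligand (ENSMUSG00000028362, chr4:63831308-63861347, - strand), was at 6.35, 7.74 and 7.47 CPM in normoxia and at 1.18, 1.18 and 1.92 CPM in hypoxia. The groups were separate by a wide margin, and the log2 fold change was -2.32 ± 0.21 (SE) (edgeR adjusted p = 1.72e-05), or 4.99-fold lower, the largest fall of any member. Its neighbor Tnfsf15, whose product TL1A binds the receptor encoded by Tnfrsf25, was at 1.35, 1.48 and 1.83 CPM in normoxia and 0.353, 0.67 and 0.849 CPM in hypoxia. It was lower in all hypoxic samples, at a log2 fold change of -1.28 ± 0.32 (SE) (edgeR adjusted p = 0.00649). Tnfsf14 (LIGHT) was at 0.542 ± 0.221 CPM in normoxia and 0.601 ± 0.118 CPM in hypoxia and was not called.

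In contrast, Tnfrsf25, the death domain receptor DR3, moved opposite to its ligand. It was at 0.269, 0.607 and 0.609 CPM in normoxia and at 1.81, 1.60 and 1.92 CPM in hypoxia, from 7, 16 and 15 counts to 46, 50 and 61. No hypoxic sample came near the normoxic range, and the log2 fold change was 1.83 ± 0.31 (SE) (edgeR adjusted p = 0.000729).

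Among the 7 death domain receptors, 6 were tested, 2 rose and 3 fell. Fas, the receptor of the death ligand FasL, was at 7.58, 9.22 and 7.51 CPM in normoxia and 15.6, 16.4 and 17.5 CPM in hypoxia. The groups did not overlap, and the log2 fold change was 1.03 ± 0.11 (SE) (edgeR adjusted p = 3.77e-05). Its ligand gene Fasl had 0 counts in all 6 samples, which allows at most 3 counts per library, or 0.094 to 0.121 CPM.

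Tnfrsf1a, encoding the main TNF receptor TNFR1, had the highest level per kilobase of exon of all tested members in both conditions, at 178 ± 4.46 CPM per kb in normoxia and 117 ± 4.36 in hypoxia. By sample it was at 457, 452 and 474 CPM in normoxia and 316, 297 and 295 CPM in hypoxia. All 3 hypoxic samples were lower, with a log2 fold change of -0.61 ± 0.06 (SE) (edgeR adjusted p = 1.77e-05), and its fold of 1.52 lies just past the 1.5 used for a call. Tnfrsf1b, encoding TNFR2, stood at 105, 83.3 and 101 CPM in normoxia and 95.7, 101 and 93.5 CPM in hypoxia. Its groups overlapped and its log2 fold change of 0.01 ± 0.08 (SE).

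Tnfrsf21 (DR6) fell from 17.4, 17.3 and 15.2 CPM to 5.58, 6.73 and 5.03 CPM. The hypoxic samples were all under the normoxic ones, and the log2 fold change was -1.52 ± 0.12 (SE) (edgeR adjusted p = 8.71e-06). Ngfr, the p75 neurotrophin receptor, which marks several mesenchymal and glial cells, went from 6.93, 11.8 and 10.5 CPM to 3.49, 4.02 and 2.83 CPM. Its normoxic spread was wide, with replicate 1 the lowest, and the groups did not overlap, at a log2 fold change of -1.5 ± 0.22 (SE) (edgeR adjusted p = 0.000282).

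TRAIL is a death ligand with signaling and decoy receptors. Tnfrsf26, Tnfrsf22 and Tnfrsf23 lie next to each other within 78214 bases at chr7:143607659-143685872, and all 3 rose. Tnfrsf22 and Tnfrsf23 encode mouse TRAIL decoys, and Tnfrsf26 encodes a related receptor whose ligand is not settled. Tnfrsf23 was at 43.4, 34.4 and 42.5 CPM in normoxia and at 137, 144 and 138 CPM in hypoxia. The hypoxic samples were tight and all far above normoxia, with a log2 fold change of 1.80 ± 0.09 (SE) (edgeR adjusted p = 3.93e-07).

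Tnfrsf22 rose from 13.2, 11.7 and 12.3 CPM to 26.8, 27.3 and 28.2 CPM (log2 fold change 1.15 ± 0.07, SE, edgeR adjusted p = 1.97e-06). Tnfrsf26 rose from 8.74, 9.26 and 11.6 CPM to 19.8, 25.4 and 23.0 CPM (log2 fold change 1.21 ± 0.13, SE, edgeR adjusted p = 4.62e-05). Neither gene had overlapping groups. Of the 75-base stretches of Tnfrsf22 transcripts, 20.8% were shared with other genes, 12.6% with Tnfrsf23 and the rest with genes outside this cluster, so reads could be split, and the noncoding E230032D23Rik overlaps exons of Tnfrsf23 and Tnfrsf26 on the other strand, with at most 33 counts. Counts summed over the 3 genes, which splitting among them leaves as they are, gave 65.3, 55.4 and 66.4 CPM in normoxia and 184, 197 and 189 CPM in hypoxia, a log2 fold change of 1.61 ± 0.08 (SE) (edgeR adjusted p = 3.45e-07).

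In contrast, Tnfrsf10b, whose product DR5 carries the death signal, was at 28.6, 28.2 and 26.6 CPM in normoxia and 26.8, 29.5 and 28.0 CPM in hypoxia. The groups overlapped, and its log2 fold change was 0.02 ± 0.06 (SE). The log2 ratio of decoy CPM, Tnfrsf22 plus Tnfrsf23, to Tnfrsf10b CPM was 0.98, 0.71 and 1.04 in normoxia and 2.61, 2.54 and 2.57 in hypoxia. It was higher in all hypoxic samples, by 1.66 between the means, with p = 0.1 in a two-sided exact permutation test, the smallest p that 3 against 3 samples can give. The TRAIL gene itself, Tnfsf10, had 5, 7 and 4 counts in normoxia and 1, 1 and 3 in hypoxia and was not tested.

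**Figure D3:**
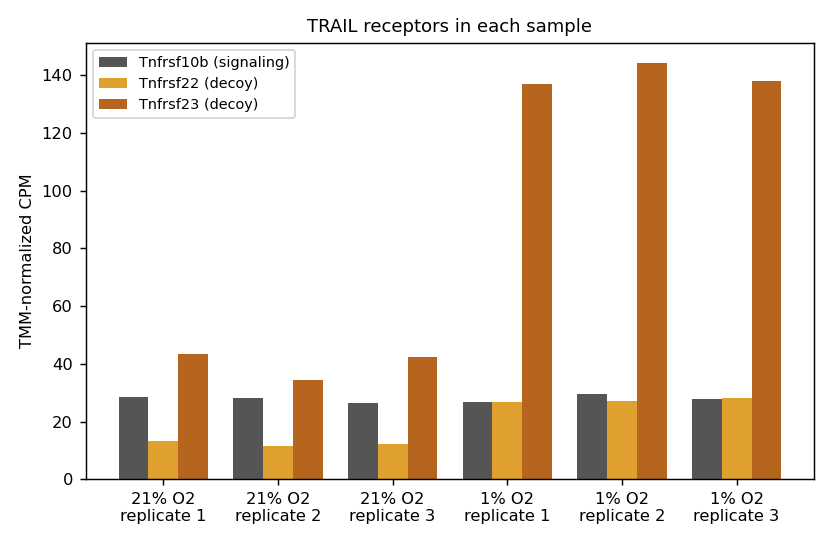
Bars of TMM-scaled CPM in each of the 6 samples for the TRAIL receptor genes Tnfrsf10b, Tnfrsf22 and Tnfrsf23. Tnfrsf23 stands at 34.4 to 43.4 CPM in the normoxic samples and at 137 to 144 CPM in the hypoxic ones, while Tnfrsf10b stays between 26.6 and 29.5 CPM.

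Receptors of the lymphotoxin, RANK and BAFF branches were lower or not called. Ltbr, the lymphotoxin beta receptor, held rank 2 in level per kilobase in both conditions. It was at 167, 160 and 167 CPM in normoxia and at 103, 95.1 and 103 CPM in hypoxia. These groups were apart, with a log2 fold change of -0.71 ± 0.05 (SE) (edgeR adjusted p = 5.92e-06). Its ligand genes Lta and Ltb had at most 2 and 6 counts in any sample.

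Tnfrsf11a, encoding RANK, the receptor that drives osteoclast formation, was at 2.93, 3.49 and 3.12 CPM in normoxia and 0.864, 1.76 and 1.23 CPM in hypoxia. It was lower in every hypoxic sample, with a log2 fold change of -1.29 ± 0.25 (SE) (edgeR adjusted p = 0.0018). The RANK ligand gene Tnfsf11 was at 4.27 ± 1.02 and 3.97 ± 0.558 CPM and its soluble decoy Tnfrsf11b (osteoprotegerin) at 2.36 ± 0.807 and 2.63 ± 0.269 CPM, in normoxia and hypoxia, and neither was called. The log2 ratio of Tnfsf11 CPM to Tnfrsf11b CPM was 0.99, 0.94 and 0.70 in normoxia and 0.86, 0.19 and 0.71 in hypoxia. These ratios overlapped, with a difference of -0.29 (two-sided exact permutation test, p = 0.3).

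Tnfrsf13b (TACI), a receptor of BAFF and APRIL on B cells and some myeloid cells, was at 0.808, 2.09 and 1.34 CPM in normoxia and 0.511, 0.638 and 0.44 CPM in hypoxia. The groups were close but did not overlap, at a log2 fold change of -1.41 ± 0.38 (SE) (edgeR adjusted p = 0.00964). Of 5 B cell markers none could be tested, and their summed CPM was at most 0.192 in normoxia and 0.479 in hypoxia. The BAFF gene Tnfsf13b was at 5.41 ± 0.617 CPM in normoxia and 5.14 ± 0.641 CPM in hypoxia and was not called. The other receptors of this lineage, Tnfrsf13c and Tnfrsf17, had at most 0 and 1 count in any sample.

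Tnf, the founding inflammatory cytokine of the family, was among the lower ligands. It had 52, 102 and 50 counts in normoxia and 17, 37 and 35 in hypoxia, or 2.0, 3.87 and 2.03 CPM against 0.668, 1.18 and 1.10 CPM. All hypoxic samples were under the normoxic range, in which replicate 2 stood out as the highest. The log2 fold change was -1.40 ± 0.33 (SE) (edgeR adjusted p = 0.00503).

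The members that fell can be set beside the macrophage markers, which fell as well. Of the 9 lower members, 5 were highest in normoxic replicate 2, the sample with the highest macrophage marker sum. Divided by the summed CPM of the 13 macrophage markers in the same sample, the groups overlapped for 7 of the 9. Neither of these counts was set beside its share over all genes called lower, so neither is particular to the members. Tnfsf8 remained lower in every hypoxic sample, at 6.15, 4.22 and 5.20 CPM per 1000 macrophage marker CPM in normoxia and 2.23, 1.23 and 2.97 in hypoxia. Tnfrsf11a also remained below, although its highest hypoxic and lowest normoxic values both rounded to 1.90. The marker sum itself had a log2 ratio of the means of -1.01, so this division raises the ratio of every gene by about that much. It also adds the spread of the sum, which was 1430 ± 401 CPM in normoxia and 711 ± 223 CPM in hypoxia (SD, n = 3). The sum was mostly Lyz2, and 5 of the 13 markers were not called, Mrc1, Ptprc, Csf1r, Itgam and Cd14, with log2 fold changes of -0.64, -0.59, -0.24, -0.00 and 0.08. Without Lyz2, the sum of the other 12 markers was 380, 671 and 552 CPM in normoxia and 212, 413 and 268 CPM in hypoxia, and after division by it the groups overlapped for 6 of the 9 members, with Ngfr the third that remained lower. The part of the macrophage markers in these falls was not tested.

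**Figure D4:**
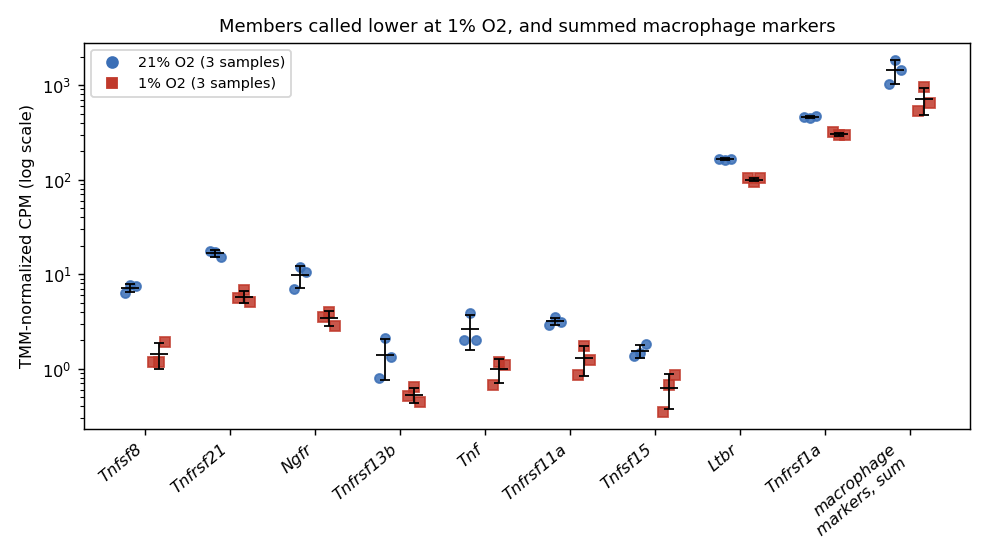
TMM-scaled CPM on a log axis for the members called lower, each point 1 sample, normoxia and hypoxia side by side, with black bars at the mean and SD (n = 3). The 3 hypoxic samples lie below the 3 normoxic ones for each of the 9 genes, from Tnfsf8 with a log2 fold change of -2.32 to Tnfrsf1a with -0.61.

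Another 14 tested members were not called, and several were well expressed. Tnfrsf12a (Fn14), the receptor of TWEAK, was at 46.2, 42.2 and 45.8 CPM in normoxia and 64.9, 60.8 and 64.1 CPM in hypoxia. Its groups did not overlap (log2 fold change 0.50 ± 0.06, SE, edgeR adjusted p = 8.26e-05), but the fold of 1.41 was below the 1.5 used for a call. The TWEAK gene Tnfsf12 was at 39.6, 39.6 and 41.5 CPM in normoxia and 31.9, 34.1 and 31.1 CPM in hypoxia, with a log2 fold change of -0.31. It shared 45.8% of its 75-base stretches with the readthrough gene Tnfsfm13, which also spans Tnfsf13, the APRIL gene. The summed counts of these 3 genes were lower in every hypoxic sample, at 50.5 to 56.1 CPM against 62.1 to 67.6 CPM, with a log2 fold change of -0.29 ± 0.06 (SE), a fold under 1.5. Tnfsfm13 alone was at 20.7 ± 1.94 CPM in normoxia and 16.6 ± 1.95 CPM in hypoxia, with a log2 fold change of -0.31. Every hypoxic sample of Tnfsfm13 was below the normoxic ones. Eda2r, a receptor of ectodysplasin A2, was at 27.8 ± 4.65 CPM in normoxia and 22.2 ± 2.54 CPM in hypoxia, with overlapping groups. Relt and Tnfrsf19, 2 receptors without a well-settled ligand, had log2 fold changes of -0.10 and -0.25.

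Of all 33 tested members, 22 had groups that did not overlap, 11 with hypoxia above and 11 with hypoxia below, a share close to the 68.9% of all tested genes. The 13 members that could not be tested included Cd40lg and Cd70 at 0 counts in every sample, Tnfsf4 with at most 3 counts, Tnfsf18 with at most 6 and Edar with at most 1. Thus ligand transcripts for several of the receptors that rose, among them Cd40, Tnfrsf4 and Tnfrsf18, were at or near 0 in this RNA. The organoids in the lower compartment were not measured here.

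The order of levels also moved. Per kilobase of exon, Tnfsf9 held rank 8 in normoxia at 9.10 ± 0.208 CPM per kb and rank 3 in hypoxia at 35.8 ± 2.35, beside Tnfrsf23 at 35.3 ± 1.02 and Tnfrsf12a at 32.7 ± 1.14. Among these, Tnfsf9 and Tnfrsf23 differed by less than their SDs. Tnfrsf9 went from rank 22 to rank 8, from 1.19 ± 0.195 to 16.9 ± 1.21 CPM per kb. Tnfrsf1a and Ltbr kept ranks 1 and 2.

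Some members that lie next to each other moved in the same direction. Tnfrsf4 and Tnfrsf18, within 15053 bases on chr4, both rose, and so did the other 2 tested genes in that interval, 1 of which is Gm16008, whose reads cannot be fully told apart from those of Tnfrsf18. Tnfsf15 and Tnfsf8 on chr4 both fell, as did Ltbr and Tnfrsf1a on chr6, where of the other 2 tested genes in the interval 1 rose and 0 fell. On chr17, Tnfsf9 rose while its neighbor Cd70 had no counts and Tnfsf14 was not called.

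Finally, 57 genes that act downstream of these receptors or process their ligands were examined, of which all could be tested. Of these, 19 rose, 33.3% beside 18.9% of all genes, and 6 fell, beside 15.3% of all genes. The 11 ubiquitin ligases and editors had 6 rises and 0 falls, and the 15 kinases and NF-kB genes had 7 rises and 0 falls. Tnfaip3, encoding the NF-kB inhibitor A20, was at 6.74, 7.86 and 7.02 CPM in normoxia and at 41.4, 49.4 and 46.7 CPM in hypoxia. That was the largest rise of the list, with a log2 fold change of 2.67 ± 0.09 (SE) (edgeR adjusted p = 7.85e-08).

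The inhibitor gene Nfkbia rose from 43.3 ± 0.325 to 133 ± 6.55 CPM, with a log2 fold change of 1.62. Birc3, encoding the TRAF-bound ubiquitin ligase cIAP2, rose from 17.2 ± 0.456 to 51.4 ± 2.76 CPM, with a log2 fold change of 1.58. Nfkb1, the gene of the NF-kB subunit p105/p50, rose from 62.3 ± 2.07 to 178 ± 2.86 CPM, with a log2 fold change of 1.52. In all of them the hypoxic samples were above the normoxic ones. The inhibitor genes Nfkbib and Cyld were not called, at 0.22 and -0.05.

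Of the 12 death domain adapters and effectors, 1 rose and 3 fell. The shares were 8.33% higher beside 18.9% of all genes, and 25.0% lower beside 15.3%. Among the falls, Bid, which links death receptors to mitochondria, went from 19.9 ± 1.31 to 11.5 ± 0.617 CPM, with a log2 fold change of -0.79 ± 0.08 (SE) (edgeR adjusted p = 4.64e-05). The rise was Mlkl, the effector of necroptosis, from 31.0 ± 2.01 to 49.7 ± 4.57 CPM, with a log2 fold change of 0.68 ± 0.08 (SE) (edgeR adjusted p = 8.42e-05). Of the 9 TRAF adapters and partners, 2 rose and 2 fell. The falls were Traip, a TRAF-interacting ubiquitin ligase, from 3.91 ± 0.779 to 1.57 ± 0.205 CPM, and Traf4, a TRAF adapter, from 89.1 ± 8.83 to 46.2 ± 5.17 CPM. Of the 5 ectodysplasin and neurotrophin ligand genes, 1 rose and 1 fell. Ntf3, a neurotrophin gene, fell from 1.79 ± 0.81 to 0.859 ± 0.287 CPM with overlapping groups (edgeR adjusted p = 0.0413). Ntf5, also a neurotrophin gene, rose from 2.48 ± 0.116 to 4.27 ± 0.614 CPM without overlap (edgeR adjusted p = 0.00298). Of the 5 genes that shed or protect these ligands and receptors, 2 rose, the metalloproteinase inhibitor gene Timp3 by a log2 fold change of 1.29 and Rhbdf2, a cofactor of the sheddase ADAM17, by 1.36.

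**Figure D5:**
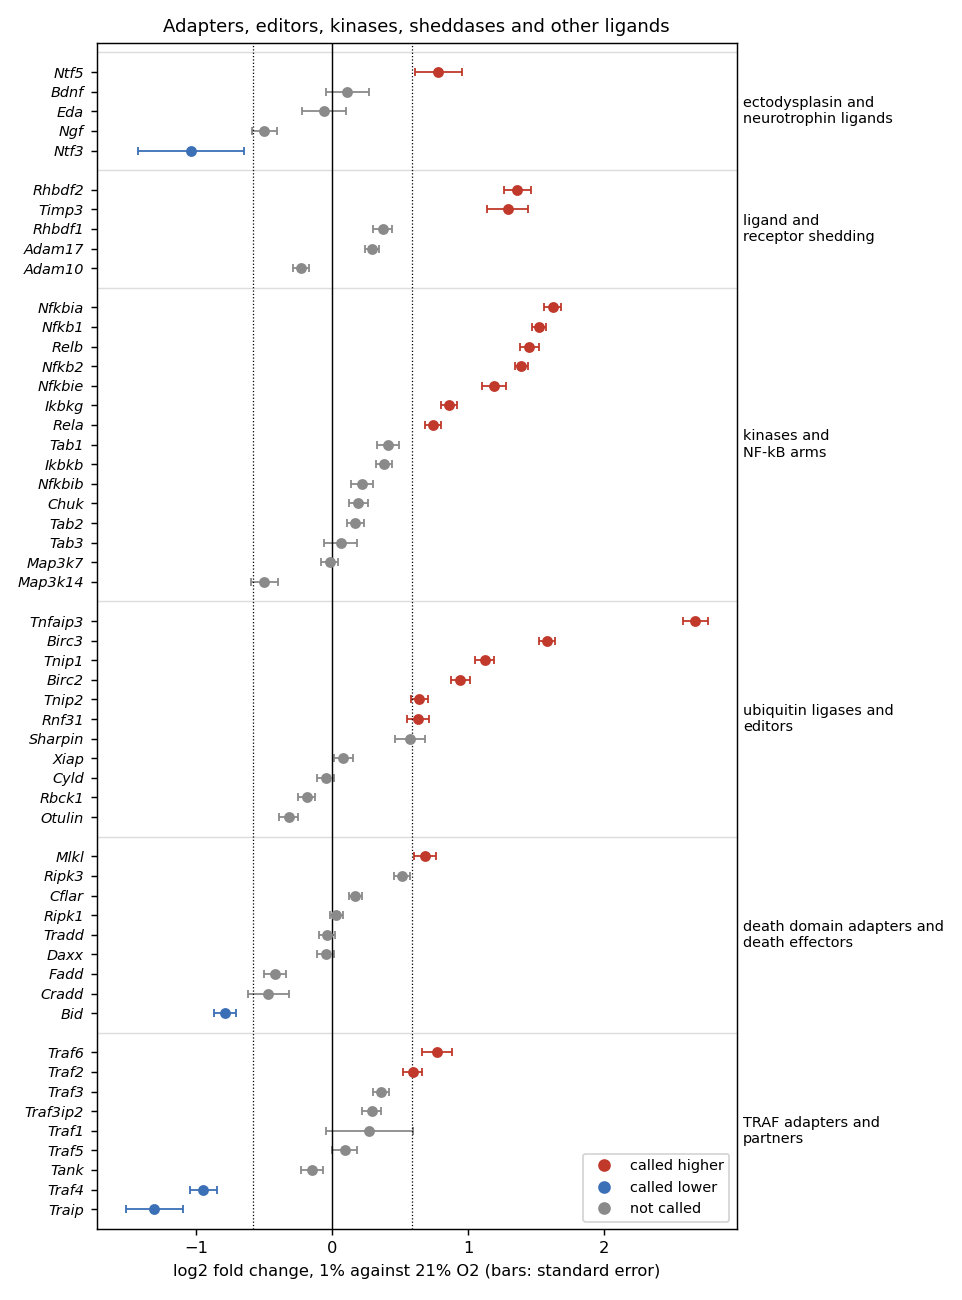
Log2 fold change in hypoxia against normoxia on the x axis for 54 of the 57 pathway genes, grouped by function, with bars showing the standard error, red and blue marking genes called higher and lower, and dotted lines at a fold of 1.5. Tnfaip3 lies highest at 2.67 and Traip lowest at -1.31, and called genes among the ubiquitin editors and the NF-kB genes all lie above 0.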

How the data were processed

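RNA was measured in 6 PSC samples, 3 at 21% and 3 at 1% oxygen. Per the labels and methods, the authors trimmed reads, aligned them to GRCm38 with STAR 2.6.1b, and estimated gene counts with RSEM 1.3.1. The deposited expected counts held no fractions in any of 55426 features, of which 5 were transgenes with 0 counts and were left out. The annotation release and the strand setting of the counting were not given in the sources used here. Of the identifiers, 55240 were found in GENCODE M21 and 186 were not.

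Genes were filtered with filterByExpr (16207 kept), scaled by TMM and tested with edgeR 4.0.16 (R 4.3.3) quasi-likelihood F tests with Benjamini-Hochberg adjustment over all genes. Standard errors are the log2 fold change divided by the square root of F. edgeR was the main test, and DESeq2 1.42.0, the tool of the study, was an alternative beside limma 3.58.1 (voom). Ratios were tested by exact permutation in scipy 1.17.1. At 3 counts, the detection floor, libraries reached 0.094 to 0.121 CPM, which covers counting error only. Replicates were compared by chi-square before averaging, and differed by more than sampling noise.

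Every tested member could be named. Called members at 1 CPM or more in a group were described sample by sample, uncalled ones with values at 10 CPM or more, and 4 pathway genes per direction, of which 1 lower gene is not reported here. Bid, Mlkl, Timp3, Rhbdf2, Ntf5 and the uncalled members under 10 CPM were added after their values were seen. The members and lists were chosen with earlier results of these data known. Protein sequences were not used here. Alternatives covered scaling, filters, fold thresholds, the tool, the replicate number as a block and leaving out each sample.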

Additional observations from a re-analysis of the deposited data

How the results depend on the processing

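The number of members called was 19 (10 higher, 9 lower) with RLE or upper-quartile scaling, without a filter, with DESeq2 or limma-voom and without any 1 sample. It was 17 under a filter of 1 CPM in 3 samples, where 4 members were not tested, and 16 at a fold of 2, where Cd40, Ltbr and Tnfrsf1a lost their calls. Without a fold threshold 23 passed. No called member changed direction in any of these fits. Leaving out members whose exons overlap another gene, chosen after seeing the data, left 15 called, 6 higher and 9 lower, since 4 of the members that rose overlap a gene on the other strand. Over all genes, 10168 were called without a fold threshold (5150 higher, 5018 lower) and 3156 at a fold of 2 (1929 higher, 1227 lower). In the pathway list the counts were 45 (31 higher, 14 lower) and 12 (10 higher, 2 lower). The summed Tnfsf12, Tnfsf13 and Tnfsfm13 counts passed without a fold threshold, at a log2 fold change of -0.29.

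The replicate numbers were not taken as pairs, since the labels give no shared source and the correlations of same-numbered deviations were 0.142, 0.139 and 0.0378. As a hint from the data, each normoxic sample correlated best with the hypoxic sample of its own number. With the replicate block 19 members were called, 10 higher and 9 lower, and with the block in DESeq2 18, where Tnfrsf4 had an adjusted p of 0.0892.

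Changes of direction in these fits concerned uncalled members near 0. Tnfsf13 was at -0.01 with the replicate block in edgeR and in DESeq2. Tnfrsf10b was at -0.01, and Tnfrsf1b at -0.02, with upper-quartile scaling or no filter. Leaving out 1 sample gave ranges of -0.26 to 0.23 for Tnfsf13, -0.02 to 0.05 for Tnfrsf10b, -0.10 to 0.07 for Tnfrsf1b, -0.03 to 0.52 for Tnfsf14, -0.16 to 0.02 for Tnfsf13b, -0.04 to 0.45 for Tnfrsf11b and -0.28 to 0.07 for Tnfsf11. Division by the macrophage marker sum, chosen after seeing the data, raises every gene alike, and Tnfrsf1a and Ltbr, whose falls were smaller than that of the sum, came to 0.42 and 0.31, or 0.27 and 0.16 without Lyz2. The 3 samples per group limit the precision for members under 1 CPM.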
